A study of Mus musculus with 24 samples.

Results

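The 9 genes that bring glucose into the hepatocyte or set the pace of glycolysis were followed in mouse primary hepatocytes: the transporters Slc2a1 and Slc2a2, the hexokinases Hk1 and Hk2, the phosphofructokinase Pfkl, the bifunctional enzymes Pfkfb1, Pfkfb2 and Pfkfb3, and the pyruvate kinase Pklr. They were chosen by name, with earlier results of these data known. A probe set of its own was found for 8 of the 9 among the 22180 genes tested, and Pfkfb1, the isoform known from liver, was not analysed here. Hepatocytes of male C57Bl6J mice, kept in medium with 1 g/l glucose and 100 nM dexamethasone, carried an adenovirus with a short hairpin RNA against lacZ (shlacZ) or against FOXA2 (shFOXA2.3) at a multiplicity of infection of 5. For 4 h they received 1 nM insulin or 100 nM glucagon, each with DMSO or with 2 µM GW4064, an agonist of the bile acid receptor FXR. The 8 resulting groups held 3 arrays each, 1 from each of 3 experiments, and every experiment used hepatocytes pooled from 3 mice. No group lacked both hormones or the virus, and what reads as higher with glucagon may equally be lower with insulin. Every rise or fall in a hormone comparison is stated for glucagon relative to insulin. shFOXA2.3 is a single hairpin, and as bulk RNA was measured, a change in the cells present and a change in the RNA per cell cannot be told apart.

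Hepatocytes take up and release glucose through Slc2a2 (GLUT2), a transporter of high capacity, and Slc2a1 (GLUT1) is the transporter of many other cell types and of cultured cells. Glucose is then phosphorylated by hexokinases, of which Hk1 and Hk2 are the forms of many tissues other than the mature liver. Flux through phosphofructokinase is set by fructose 2,6-bisphosphate, which the PFKFB enzymes both make and break down, and the L-type pyruvate kinase encoded by Pklr closes the pathway. Insulin favours glycolysis in liver, and glucagon, acting through cAMP and protein kinase A, favours glucose production.

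Glucagon and insulin separated 1 of these genes completely and a further gene in part. Pfkfb2, whose product makes and degrades fructose 2,6-bisphosphate, stood 4.01-fold higher under glucagon (95% interval 3.39 to 4.73). Hk2, an insulin-responsive hexokinase of muscle and fat, fell by 28.2%. The other 6 genes did not pass in the main fit, which does not pair the arrays by experiment. In a fit with a term for each experiment Pklr and Pfkl passed too (adjusted p = 0.0235 and 0.0185, limma). That fit called 24.6% of all genes and 4 of the 8 here. Neither GW4064 nor shFOXA2.3 moved any of the 8 past the threshold. Tests were limma fits over all genes, with Benjamini-Hochberg adjustment over all of them and a threshold of 0.05. By that rule 16.2% of all genes were called in the hormone comparison averaged over the 4 combinations of hairpin and drug (7.38% higher and 8.85% lower under glucagon), against 2 of the 8 genes here (1 higher and 1 lower).

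The windows before the RefSeq start sites of the genes that bear on these comparisons are shown first. RefSeq (assembly GRCm38.p6) gave 17 windows of 250 bases for all 9 genes, and they were searched on both strands. TGACGTCA is the cAMP response element and TGACG the part of it that also occurs alone. CACGTG is an E-box, and the carbohydrate response element was searched as CACGGG with its reverse complement after a gap of 5 bases, the form known from the Pklr promoter. TGTTTAC and TATTTAC are motifs of forkhead factors such as FOXA2. Pfkfb2 and Hk2 are shown because they differed between the hormones, Pfkfb3 as the other measured PFKFB gene, and Pklr for its carbohydrate response element. Capitals mark each TGACG, E-box and carbohydrate response element, on either strand.
Pfkfb2, chr1:130715822-130716071, minus strand: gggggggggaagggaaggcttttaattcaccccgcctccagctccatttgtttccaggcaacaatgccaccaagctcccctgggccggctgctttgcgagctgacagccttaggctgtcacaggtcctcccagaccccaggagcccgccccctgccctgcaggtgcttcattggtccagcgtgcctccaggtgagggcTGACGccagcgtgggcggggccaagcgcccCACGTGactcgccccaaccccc
Hk2, chr6:82774455-82774704, minus strand: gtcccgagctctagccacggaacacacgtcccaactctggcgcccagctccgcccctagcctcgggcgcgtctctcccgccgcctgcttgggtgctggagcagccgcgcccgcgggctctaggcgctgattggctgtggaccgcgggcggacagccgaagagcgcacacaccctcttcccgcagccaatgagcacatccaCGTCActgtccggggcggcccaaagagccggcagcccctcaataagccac
Pfkfb3, chr2:11553930-11554179, minus strand: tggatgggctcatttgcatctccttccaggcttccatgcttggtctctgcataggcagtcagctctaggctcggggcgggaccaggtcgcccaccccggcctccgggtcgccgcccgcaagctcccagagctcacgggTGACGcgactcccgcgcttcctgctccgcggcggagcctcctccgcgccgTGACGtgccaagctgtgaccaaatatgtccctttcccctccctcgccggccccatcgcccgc
Pklr, chr3:89136373-89136622, plus strand: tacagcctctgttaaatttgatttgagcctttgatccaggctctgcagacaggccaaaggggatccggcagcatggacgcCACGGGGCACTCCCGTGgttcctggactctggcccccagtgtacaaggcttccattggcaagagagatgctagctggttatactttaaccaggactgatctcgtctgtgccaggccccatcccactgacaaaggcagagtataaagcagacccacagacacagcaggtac

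The full TGACGTCA was in 0 of the 17 windows and in 1.55% of the 32851 windows of all genes. TGACG was in 4 windows of 3 genes, namely Hk2, Pfkfb2 and both windows of Pfkfb3, against 17.8% of all windows. In the windows printed it began 52 bases before the start site of Pfkfb2, 50 before that of Hk2, and 112 and 62 before that of Pfkfb3. CACGTG was in the printed window of Pfkfb2 and in the other window of Pfkfb3, against 6.02% of all windows. The form of the carbohydrate response element searched was in the printed Pklr window and in no other of the 32851 (0.00304%). Its presence there was set by the choice of that form, other forms of the element were not searched, and the share says nothing of how common the element is. TGTTTAC and TATTTAC were in 0 of the 17 windows and in 3.17% and 2.73% of all. Pfkfb2 has 3 such windows and the other 2 held none of these motifs, and 1 of those start sites lies within the printed window. Which start site the hepatocytes used was not measured, and a match describes letters only.

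**Figure D1:**
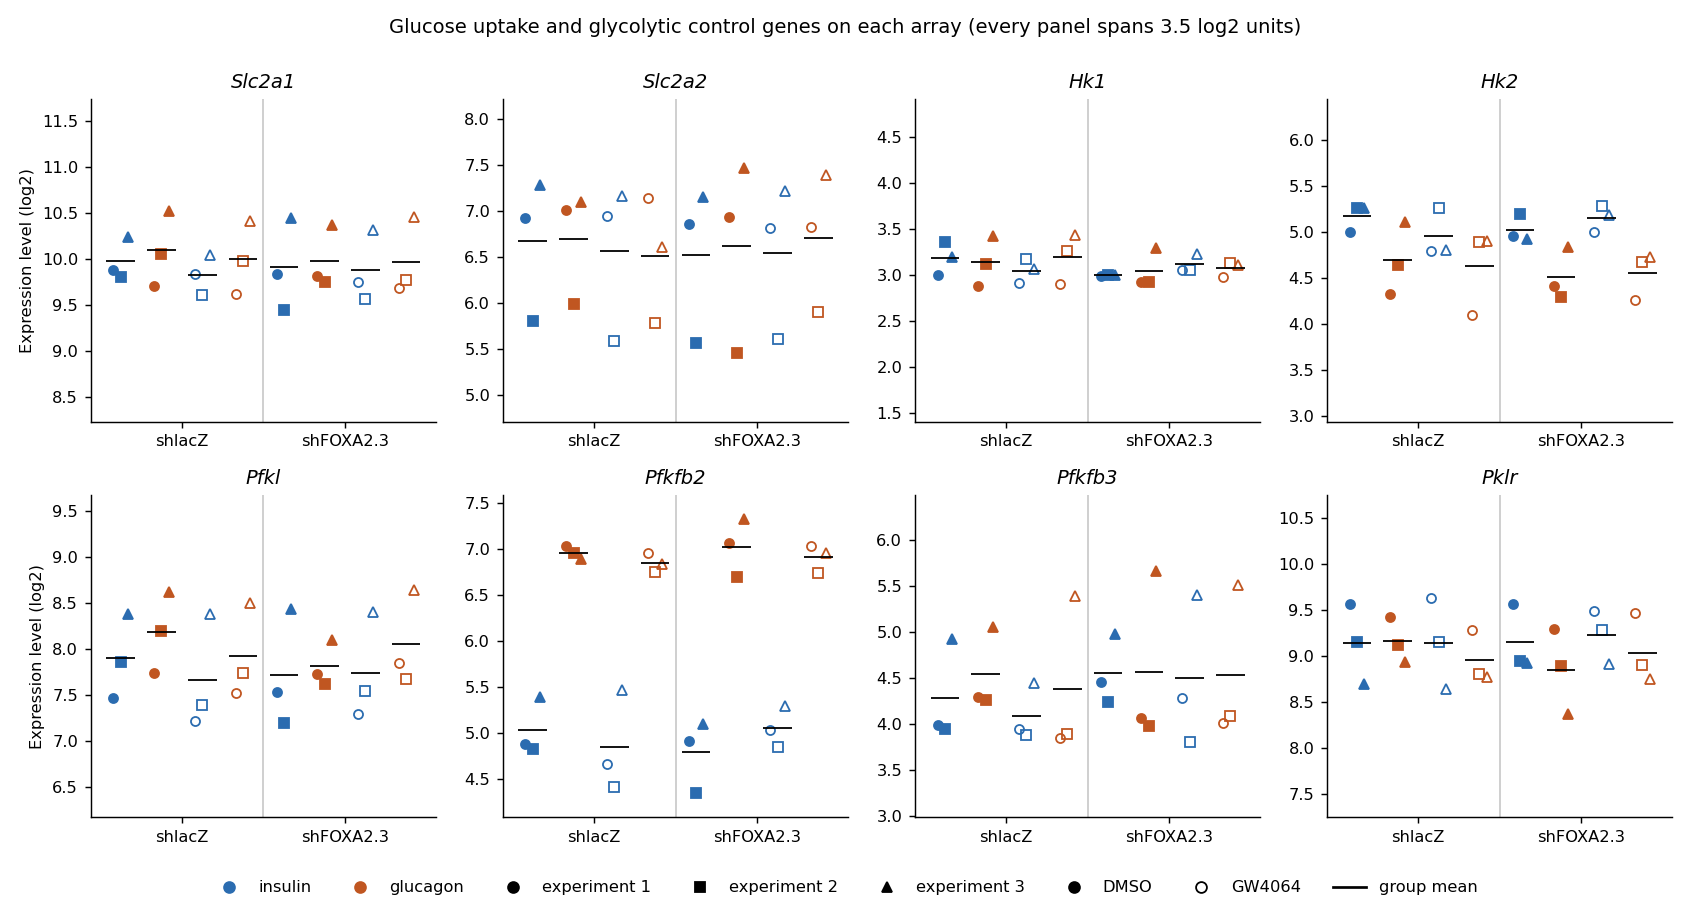
Log2 expression level of the 8 measured genes on each of the 24 arrays, with colour for the hormone, shape for the experiment, filled symbols for DMSO and open ones for GW4064, and a bar at each group mean of 3 arrays. Each panel has its own range of the same height, and in that of Pfkfb2 the 12 glucagon arrays lie above all 12 insulin arrays.

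Levels are log2 values, on which the median of all probe sets was 3.25, and values under 4.25 are called near the floor. They are not compared between genes, because probe sets differ in brightness. The PFKFB enzymes come first, since Pfkfb2 differed most. In control cells (shlacZ with DMSO) Pfkfb2 was at 4.88, 4.83 and 5.39 under insulin in experiments 1, 2 and 3, and at 7.03, 6.96 and 6.89 under glucagon. With shlacZ and GW4064 it was at 4.67, 4.42 and 5.47 under insulin and at 6.96, 6.75 and 6.84 under glucagon. The 2 hormones lie apart in both sets. With shFOXA2.3 and DMSO the insulin arrays read 4.92, 4.35 and 5.10 and the glucagon arrays 7.06, 6.70 and 7.32. With shFOXA2.3 and GW4064 they read 5.03, 4.85 and 5.30 against 7.03, 6.74 and 6.96.

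Every glucagon array was thus above every insulin array for Pfkfb2, the insulin arrays running from 4.35 to 5.47 and the glucagon arrays from 6.70 to 7.32. Such a separation of 12 from 12 arrays was found for 3.07% of all genes, 1.11% with glucagon higher and 1.96% with glucagon lower. Ordered by mean level, the groups were insulin with shFOXA2.3 and DMSO (4.79 ± 0.389, SD, n = 3), insulin with shlacZ and GW4064 (4.85 ± 0.548), insulin with shlacZ and DMSO (5.03 ± 0.31) and insulin with shFOXA2.3 and GW4064 (5.06 ± 0.23). Above them came glucagon with shlacZ and GW4064 (6.85 ± 0.106), shFOXA2.3 and GW4064 (6.91 ± 0.154), shlacZ and DMSO (6.96 ± 0.0724) and shFOXA2.3 and DMSO (7.03 ± 0.313). Neighbours within a hormone overlapped in their values, and the step between the hormones was the gap in this order.

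The averaged difference for Pfkfb2 was 2.00 (SE 0.115, 95% interval 1.76 to 2.24, adjusted p = 1.07e-10), with glucagon higher in 12 of 12 pairs of arrays that shared hairpin, drug and experiment. It ranked 48 by size among the 22180 genes. Within single conditions, where 4.68%, 3.09%, 4.79% and 3.49% of genes were called, Pfkfb2 was the gene of the 8 that passed in each. The differences were 1.93 with shlacZ and DMSO (adjusted p = 2.33e-05), 2.00 with shlacZ and GW4064 (2.04e-05), 2.24 with shFOXA2.3 and DMSO (3.55e-06) and 1.85 with shFOXA2.3 and GW4064 (4.48e-05), each with an SE of 0.23. By experiment the averaged difference was 2.15, 2.17 and 1.69.

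Pfkfb3, an isoform known for strong kinase activity and for induction by low oxygen, did not follow Pfkfb2. Its insulin arrays ran from 3.81 through a median of 4.27 to 5.40 and its glucagon arrays from 3.85 through 4.18 to 5.67, and 12 of the 24 were near the floor. The 2 ranges overlap almost fully. The difference was 0.15 (95% interval -0.39 to 0.68, adjusted p = 0.822), and it had the sign of a rise in 8 of 12 pairs. By experiment it was -0.11, 0.09 and 0.46.

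Hk2 differed less than Pfkfb2, and its hormone groups overlapped. In control cells it was at 5.0, 5.26 and 5.26 under insulin and at 4.32, 4.64 and 5.11 under glucagon. With shlacZ and GW4064 it was at 4.79, 5.26 and 4.80 against 4.10, 4.89 and 4.90. In this last set the glucagon array of experiment 3 was above the insulin array, the 1 pair of 12 that went the other way. With shFOXA2.3 and DMSO it was at 4.95, 5.19 and 4.92 against 4.41, 4.29 and 4.84. With shFOXA2.3 and GW4064 it was at 5.0, 5.28 and 5.18 against 4.26, 4.67 and 4.73, and these 2 groups do not overlap.

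The averaged Hk2 difference was -0.48 (SE 0.109, 95% interval -0.70 to -0.25, adjusted p = 0.00324), with glucagon lower in 11 of 12 pairs. By experiment it was -0.66, -0.62 and -0.15, so the arrays of experiment 3 showed the smallest fall. The 3 experiments are the replicates, and the pairs within them are not separate replicates. Without experiment 2 the difference was -0.41 and no longer passed (adjusted p = 0.121). Within single conditions Hk2 differed by -0.49, -0.32, -0.51 and -0.60 (SE 0.217), in the order of conditions used above, with adjusted p of 0.268, 0.653, 0.261 and 0.179. A fit with a term for each experiment (a block) takes the level of the experiments out of the error, and its adjusted p were 0.0559, 0.287, 0.045 and 0.0198. In that fit Hk2 passed in both shFOXA2.3 conditions, while 11.2%, 8.41%, 11.3% and 9.14% of all genes were called in the 4 conditions. A test of whether the difference depended on the hairpin gave -0.15 (95% interval -0.60 to 0.31, adjusted p = 1).

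Hk1, the hexokinase of most other tissues, lay near the floor on all 24 arrays, between 2.88 and 3.44. Its difference of 0.03 (95% interval -0.12 to 0.18, adjusted p = 0.886) was therefore one between values without clear signal.

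Pklr and Pfkl, the pyruvate kinase and the phosphofructokinase subunit of liver, gave small and opposite differences. Pklr in control cells was at 9.57, 9.15 and 8.70 under insulin and 9.43, 9.12 and 8.94 under glucagon. Over all conditions the insulin arrays ran from 8.64 to 9.63 (median 9.16) and the glucagon arrays from 8.37 to 9.47 (median 8.92), and they overlapped. The Pklr difference was -0.16 (SE 0.143, 95% interval -0.46 to 0.13, adjusted p = 0.566), with glucagon lower in 10 of 12 pairs. In the fit with the block Pklr passed (interval -0.27 to -0.06, adjusted p = 0.0235). With the experiment as a random block, which uses 1 correlation estimated over all genes (0.193), it did not pass (adjusted p = 0.249). That correlation was not fitted to single genes. Of the spread over arrays 78.9% for Pklr and 76.4% for Pfkl lay between experiments, against a median of 14.5% over all genes. Nor did Pklr pass with the block and without experiment 1 or 2 (adjusted p = 0.194 and 0.193). Pklr is known as a gene induced by glucose and insulin and curbed by glucagon.

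Pfkl was at 7.47, 7.86 and 8.38 in control cells under insulin and at 7.74, 8.19 and 8.62 under glucagon. Over all conditions its insulin arrays ran from 7.20 to 8.43 (median 7.54) and its glucagon arrays from 7.52 to 8.64 (median 7.80), with wide overlap. The difference was 0.23 (SE 0.192, 95% interval -0.17 to 0.64, adjusted p = 0.535), with glucagon higher in 11 of 12 pairs. With the block Pfkl passed as well (interval 0.08 to 0.38, adjusted p = 0.0185), and without experiment 3 it passed without a block (0.32, adjusted p = 0.0303). With the random block it did not pass (adjusted p = 0.219), nor did it with the block and without experiment 1 or 2 (adjusted p = 0.194 and 0.109). The block thus brought the genes called to 4 of 8, against 24.6% of all genes (12% higher and 12.6% lower), and with the random block they stayed at 2 of 8, against 21.3% of all genes.

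The transporters did not pass in either fit. Slc2a2 in control cells was at 6.93, 5.81 and 7.28 under insulin and at 7.01, 5.99 and 7.10 under glucagon. Its averaged difference was 0.06 (95% interval -0.57 to 0.68, adjusted p = 0.945, with the block 0.715). Slc2a1 in control cells was at 9.88, 9.81 and 10.24 under insulin and at 9.71, 10.05 and 10.52 under glucagon. Its averaged difference was 0.11 (95% interval -0.18 to 0.41, adjusted p = 0.718, with the block 0.224), and by experiment it was -0.12, 0.28 and 0.18. With the block and without experiment 1 the Slc2a1 difference was 0.23 and passed (adjusted p = 0.0338). As fold changes the intervals without the block allow 0.674 to 1.61 for Slc2a2 and 0.884 to 1.33 for Slc2a1. With the block the log2 interval for Slc2a2 narrowed to -0.11 to 0.22.

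**Figure D2:**
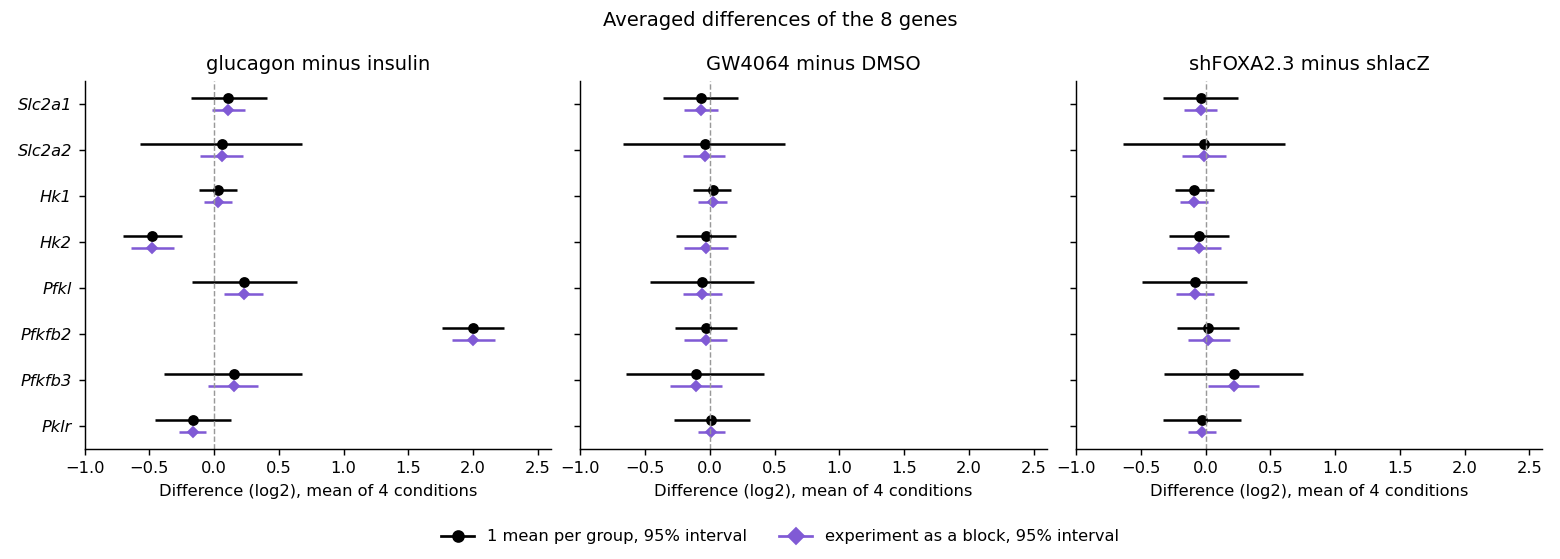
Log2 differences of the 8 measured genes with 95% intervals for the hormone (glucagon minus insulin), the drug (GW4064 minus DMSO) and the hairpin (shFOXA2.3 minus shlacZ), each the mean of 4 conditions, without (circles) and with (diamonds) the experiment as a block. Pfkfb2 at 2.00 and Hk2 at -0.48 have intervals clear of 0 for the hormones in both fits, and Pklr and Pfkl only with the block. Every circle for GW4064 and the hairpin has an interval that spans 0.

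GW4064 addresses the part of FXR, which is known to curb glycolytic genes such as Pklr in hepatocytes. None of the 8 genes passed in the averaged GW4064 comparison, in which 0.00902% of all genes were called (2 genes), and 0 of the 8 had an unadjusted p under 0.05. The differences lay within 0.112 of 0, and each adjusted p was 1. For Pklr the difference was 0.01 (95% interval -0.28 to 0.31, or 0.821-fold to 1.24-fold). For Pfkfb2 it was -0.03 (-0.27 to 0.21, or 0.827-fold to 1.15-fold). The widest interval was that of Slc2a2 (-0.04, -0.67 to 0.58, with the block -0.21 to 0.12), and that of Pfkfb3 ran from -0.65 to 0.42 around -0.11. With the block, which called 0.0135% of all genes, 0 of the 8 passed, the lowest adjusted p being 0.91.

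The mean level of Foxa2, against which the hairpin was directed, was lower with shFOXA2.3 in all 4 conditions, by an amount that passed the threshold with the block and not without it. With DMSO, Foxa2 means were 6.27 in shlacZ and 5.77 in shFOXA2.3 cells given insulin, and 7.47 against 7.02 in cells given glucagon. With GW4064 they were 6.14 against 5.76 and 7.31 against 6.90. The averaged Foxa2 difference was -0.43 (adjusted p = 0.0613, with the block 0.0194), lower in 12 of 12 pairs, and by experiment it was -0.51, -0.66 and -0.12. It passed in 12 of 37 alternatives, among them the fit without experiment 3 (-0.59, adjusted p = 0.00805). Under glucagon Foxa2 rose by 1.19 (adjusted p = 2.15e-10), a difference farther from 0 than that of the hairpin.

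None of the 8 genes passed in the averaged hairpin comparison, in which 0.00902% of all genes were called, or 0.0766% with the block. Adjusted p ran from 0.9 to 0.997, and 0 of the 8 had an unadjusted p under 0.05. Pfkfb2 differed by 0.02 (95% interval -0.22 to 0.26) and Slc2a2 by -0.01 (-0.64 to 0.61, with the block -0.18 to 0.16). Pfkfb3 had the difference farthest from 0, at 0.22 (-0.32 to 0.75), higher with shFOXA2.3 in 9 of 12 pairs, and at 0.19, 0.03 and 0.43 by experiment. With the block its unadjusted p was 0.0353 and its adjusted p 0.409.

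Interactions tested whether one treatment altered the effect of another, and 0 genes of all 22180 and 0 of the 8 were called for any of them, with or without the block. Unadjusted p under 0.05 were found for 921 genes in hormone by hairpin, 584 in hormone by drug, 705 in hairpin by drug and 709 in the three-way term, and for 0 of the 8 genes. The Pfkfb2 response to glucagon differed by 0.08 between the hairpins (95% interval -0.40 to 0.56) and by -0.16 between GW4064 and DMSO (-0.64 to 0.32), so a change of its response of up to about these bounds cannot be told from none. The hairpin by drug term ran from 0.10 to 0.38 over the 8 genes, Hk1 near the floor included. Its median was 0.21 for them and 0.012 over all genes, a difference that was not tested. The 8 values come from the same arrays. With the block, unadjusted p for Pfkl and Pklr in this term were 0.0142 and 0.0347, and the adjusted p 0.835 and 0.85. In that fit 1270 of all 22180 genes had an unadjusted p under 0.05 in this term.

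**Figure D3:**
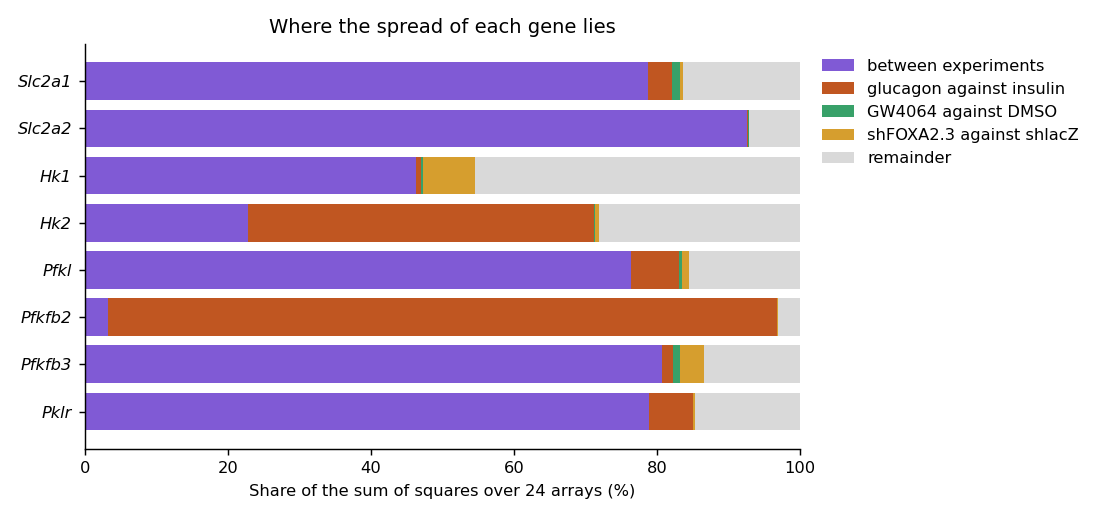
Share of the sum of squares over 24 arrays, in percent, that lies between the 3 experiments, between the levels of each treatment, and in the remainder, for each measured gene. Glucagon against insulin takes 93.5% for Pfkfb2 and 48.3% for Hk2, and the experiments take over 76% for 5 of the other genes.

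For most of these genes the experiment, not the treatment, went with the level. Of the spread of Slc2a2 over the 24 arrays, 92.5% lay between experiments, against a median of 14.5% over all genes. The shares were 80.7% for Pfkfb3, 78.9% for Pklr, 78.7% for Slc2a1 and 76.4% for Pfkl. They were lower for Hk1 (46.3%), Hk2 (22.9%) and Pfkfb2 (3.3%). All groups had 1 array per experiment, so this spread widened the intervals of the fit without the block and favoured no group.

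The experiments did not order the genes alike. Slc2a2 was low in experiment 2, where its 8 arrays ran from 5.46 to 5.99 against 6.82 to 7.14 in experiment 1 and 6.61 to 7.47 in experiment 3. Pfkfb3 was high in experiment 3, at 4.45 to 5.67, against 3.85 to 4.46 and 3.81 to 4.27. Slc2a1 was also highest in experiment 3, at 10.04 to 10.52, with 9.62 to 9.88 and 9.45 to 10.05 in the others. Pfkl had a median of 8.41 in experiment 3 against 7.53 and 7.65, and Pklr ran the other way, with medians of 9.48, 9.04 and 8.76 in experiments 1, 2 and 3.

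Other lists moved with the experiments too. The mean level of 11 genes responsive to low oxygen had medians of 7.11, 7.18 and 8.10 in experiments 1, 2 and 3, and that of 14 glycolytic enzymes 6.54, 6.56 and 6.88. Markers of hepatocytes were at 10.2, 9.85 and 10.3, those that rise as hepatocytes dedifferentiate in culture at 9.20, 9.40 and 8.88, and endothelial markers at 5.03, 4.20 and 4.33. Their part in the levels of the 8 genes was not tested.

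**Figure D4:**
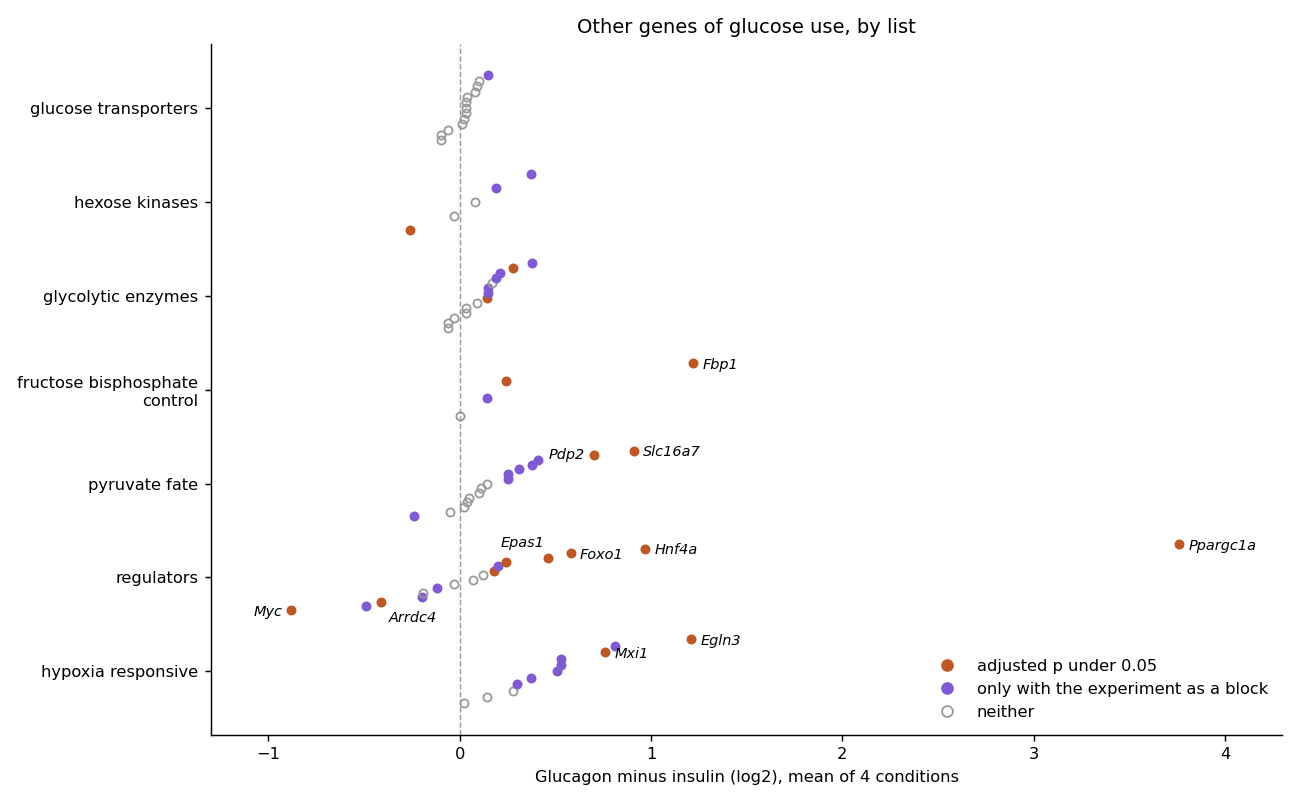
Glucagon minus insulin on the log2 scale, mean of 4 conditions, for the tested genes of 7 lists around glucose use, with 1 point per gene, orange where the adjusted p was under 0.05, purple where it was so only with the experiment as a block and open where neither. Most points lie between 0 and 0.5, while Ppargc1a at 3.76, Fbp1 at 1.22 and Egln3 at 1.21 lie farthest to the right and Myc at -0.88 farthest to the left.

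Around the 8 genes, Fbp1 and 8 of 16 genes listed as regulators of glycolytic genes differed between the hormones, while 0 of 13 other glucose transporters passed. The list of regulators also holds glucose-responsive genes. Differences between the lists were not tested. Over all genes the median difference was 0.005, and 16.2% were called, or 24.6% with the block and 21.3% with the random block. Of the transporters 0 had a mean level above the floor, and their median difference was 0.03. With the block Slc2a8, a transporter of inner membranes, passed at 0.15 (adjusted p = 0.0232, limma), a gene named after its value was seen. Of 5 tested genes in the list of hexose kinases and their regulator, 1 passed, Adpgk, a kinase that uses ADP, at -0.26 (adjusted p = 0.0073). Without experiment 1 the adjusted p of Adpgk was 0.183 and without experiment 2 it was 0.0889. With the block Gckr, a regulatory protein of glucose phosphorylation in liver, at 0.37 (adjusted p = 0.502, with the block 1.42e-04), and the fructose kinase Khk at 0.19 (with the block 0.00361) passed too, both also named after their values were seen. Neither passed with the random block (adjusted p = 0.148 for Gckr and 0.635 for Khk).

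Of 14 glycolytic enzymes 2 passed, both higher, a share near that of all genes, and the median difference was 0.14. They were Gapdh, at 0.14 (adjusted p = 0.00515), and Bpgm, which makes 2,3-bisphosphoglycerate, at 0.28 (adjusted p = 0.00763). Neither passed in every fit that left out an experiment. The adjusted p of Gapdh was 0.0568, 0.103 and 0.0849 without experiments 1, 2 and 3, and after quantile normalization it was 0.0731 at a difference of 0.08. That of Bpgm was 0.123 and 0.221 without experiments 1 and 2. With the block 7 of the 14 passed, all higher, and with the random block 3 did.

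Fbp1, the fructose bisphosphatase that opposes phosphofructokinase in glucose production, rose from 5.58 under insulin to 6.80 under glucagon (1.22, SE 0.195, adjusted p = 1.0e-04), in 12 of 12 pairs. Of the 4 genes of that list 2 passed, the other being Tigar, a phosphatase of fructose 2,6-bisphosphate, at 0.24 (adjusted p = 0.0491). Tigar did not pass in 24 of its 37 alternatives, with an adjusted p of 0.168 and 0.449 without experiments 1 and 2. With the block 3 of the 4 passed, with Pfkfb4 at 0.14 added, a gene near the floor. Fbp2, the form known from muscle, was at 4.25 under both hormones. The gluconeogenic genes Pck1 and G6pc, given for scale, stood 6.04 and 5.16 higher. Both were near the floor on all 12 insulin arrays.

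Of 15 genes of pyruvate use 2 passed, both higher, again a share near that of all genes, with a median of 0.14. These were Slc16a7, a transporter of lactate and pyruvate, at 0.91 (adjusted p = 0.0125), and Pdp2, the phosphatase that activates pyruvate dehydrogenase, at 0.70 (adjusted p = 6.19e-04), whose mean lay near the floor. Slc16a7 did not pass without experiment 1 (0.75, adjusted p = 0.328). With the block 7 were higher and 1 lower, the latter being Gpd1 at -0.24, named after its value was seen, while with the random block 3 were higher and 0 lower.

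Among the 16 genes listed as regulators of glycolytic genes 6 were higher and 2 lower. Of the higher ones Tbc1d4, at 0.24 (adjusted p = 0.0162), was near the floor on all 24 arrays, a gene named after its value was seen. The coactivator Ppargc1a, which glucagon is known to induce, rose from 3.22 to 6.98 (3.76, adjusted p = 3.85e-09). Its values were near the floor on all 12 insulin arrays. The liver factor Hnf4a was higher by 0.97 (adjusted p = 6.67e-05), the insulin-curbed factor Foxo1 by 0.58 (adjusted p = 1.61e-07) and the hypoxia factor Epas1 by 0.46 (adjusted p = 0.00457, and 0.0594 without experiment 3). Myc, a factor known to induce glycolytic genes, fell from 10.2 to 9.28 (-0.88, adjusted p = 3.04e-08). The other lower gene was Arrdc4, a glucose-responsive gene, at -0.41 (adjusted p = 0.00923, and 0.0853 and 0.226 without experiments 1 and 2), named after its value was seen. Mlxipl, which encodes the glucose-responsive factor ChREBP, differed by 0.20 (adjusted p = 0.317), with an adjusted p of 0.0373 under the block and 0.11 under the random block. With the block 7 of the 16 listed regulators were higher and 5 lower, and with the random block 6 were higher and 5 lower.

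Of 11 genes responsive to low oxygen 2 passed, both higher and near the share of all genes, and the median difference was 0.51. They were Mxi1, a Myc antagonist, at 0.76 (adjusted p = 5.58e-09), and the prolyl hydroxylase gene Egln3, at 1.21 (adjusted p = 0.0306). Egln3 did not pass in 15 of its 37 alternatives, with an adjusted p of 0.248 and 0.215 without experiments 1 and 2. With the block 8 of the 11 passed, all higher, and with the random block 7 did. In the averaged GW4064 and hairpin comparisons 0 genes of these 7 lists passed, and with the block 1 did, Slc16a3, a lactate exporter, at -0.40 with shFOXA2.3 (adjusted p = 0.0471).

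The labelled cell type could be seen in the arrays, as 10 of 10 hepatocyte markers lay above the floor. Their mean level ran from 9.39 to 10.2 on insulin arrays and from 10.1 to 10.6 on glucagon arrays, and 5 of the 10 passed, all higher, with Tat, an enzyme of tyrosine breakdown, at 2.99. Of the tested markers of other cells, 8 of 10 for macrophages, 8 of 10 for stellate cells, 4 of 10 for endothelial cells, 5 of 7 for cholangiocytes, 8 of 8 for lymphocytes and 3 of 3 for erythroid cells were near the floor. Mean levels on insulin and glucagon arrays were 3.76 to 4.20 and 3.90 to 4.37 for macrophage markers, 3.44 to 3.75 and 3.52 to 3.84 for stellate markers, and 4.14 to 5.07 and 4.16 to 5.10 for endothelial markers. Cholangiocyte markers ran from 3.60 to 4.02 and from 3.39 to 3.63. Of the cholangiocyte markers 1 fell, Sox9, from 7.78 to 6.58 (adjusted p = 4.56e-04), and with the block Krt19 did too, at -0.53. Of the stellate markers 1 rose, Dcn, by 0.35 (adjusted p = 0.0252), and with the block 3 did, with Lrat at 0.19 and Reln at 0.25 added. No macrophage or endothelial marker passed, but with the block 2 of each were higher, Cd14 at 0.38, Cd68 at 0.24, Cdh5 at 0.16 and Fcgr2b at 0.17. These 9 markers were named after their values were seen. The genes of dedifferentiation in culture lay at 8.87 to 9.54 and 8.57 to 9.38, with 1 of 10 higher and 1 lower, or 1 higher and 6 lower with the block. The part of these lists in the Pfkfb2 and Hk2 differences was not tested.

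Correlations used values minus the mean of their experiment, among 8606 genes whose mean over all 24 arrays was not near the floor. Genes that followed Pfkfb2 most closely were Cobll1 (r = 0.992), Mtus1 (r = 0.989) and AA986860 (r = 0.985). Cobll1 rose from 7.39 to 9.15, and the hormone differences of Mtus1 and AA986860 were 1.35 and 2.72. AA986860 had a mean of 3.86 under insulin, near the floor, and met the filter through its mean of 6.58 under glucagon. The genes most like Hk2 were Rnf24 (r = 0.914), Plcxd2 (r = 0.907) and F3 (r = 0.896), with hormone differences of -0.80, -0.97 and -2.03. These correlations are descriptions over arrays that share their hormone groups.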

How the data were processed

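Arrays (Affymetrix MoGene 2.0 ST) were made from 300 ng of RNA, per the labels' protocols. The authors deposited log2 values, read as such from their range of 1.46 to 13.5, for 41345 probe sets on 24 arrays (array medians 3.21 to 3.28). GeneSpring software was used and technical replicates were pooled, per the series' design text, while the normalization is not given in the sources used here. Of the probe sets 23521 had 1 gene symbol, 1814 several and 16010 none, and the probe set of highest mean stood for a gene (22180 genes). The log2 values were fitted with limma 3.58.1 in R 4.3.3, with 1 mean per group and 16 residual degrees of freedom. The fit was tested on simulated data with independent arrays and no effect of the experiment, which says nothing of the pairing. In averaged differences the fits count the pairs of an experiment as separate, although they share a pool of hepatocytes. The number of experiments, 3, limits the precision. Adjusted p and counts of pairs can therefore overstate the replication. The experiments are the replicates, which correlated at r = 0.986 to 0.994 within groups. Deviations from group means correlated in all 84 pairs of arrays of an experiment (r = 0.374 to 0.698), so the experiment number, given by the labels, paired the arrays and entered an alternative fit as a block (14 residual degrees of freedom). Other alternatives were a random block, array scaling, a filter on dim genes, averaged probe sets, eBayes with trend, a fit of 6 arrays and arrays or experiments left out.

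The text names all members and up to 5 genes per list around glucose use with the largest difference among those past the threshold. It also names Fbp1, Foxa2, Pck1 and G6pc whatever their values, and the 3 genes most like each member called. Genes said to be named after their values were seen fall outside this rule, as do Mlxipl, Fbp2, Pfkfb4, Slc16a3 and the marker Tat. The members and lists were chosen with earlier results of these data known. Pfkfb1 was not analysed here. Plots and the promoter search used Python 3.11.15, with matplotlib 3.10.9 for the plots.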

Additional observations from a re-analysis of the deposited data

How the results depend on the processing

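Pfkfb2 passed under 37 of 37 alternatives in the averaged hormone comparison, at 1.92 to 2.16, and Hk2 under 36, at -0.64 to -0.38, the exception being without experiment 2. The genes past the threshold, 2 of 8 in that comparison, became 4 with the replicate block, 1 without experiment 2, and 4 with the block and without experiment 3, a combination chosen after seeing the data. With single arrays or experiments left out they ran from 1 to 3. Within single conditions the calls, 4 over all conditions, stayed at 4 with arrays or experiments left out and became 6 with the block, 5 with the random block and 7 with the block and without experiment 3. Counts for GW4064, the hairpin and the interactions were 0 in all 37 alternatives. Differences that were not called changed sign with arrays or experiments left out, and over those settings they ran as follows. For the hormones, Hk1 ran from -0.05 to 0.08, Pfkfb3 from -0.01 to 0.28 and Slc2a2 from -0.06 to 0.20. For GW4064, Hk1 ran from -0.02 to 0.05, Hk2 from -0.13 to 0.04, Pklr from -0.05 to 0.08, Pfkl from -0.15 to 0.03, Pfkfb2 from -0.11 to 0.02, Pfkfb3 from -0.24 to 0.02 and Slc2a2 from -0.19 to 0.08. For the hairpin, Pklr ran from -0.10 to 0.03, Pfkl from -0.18 to 0.02, Pfkfb2 from -0.03 to 0.10, Slc2a1 from -0.11 to 0.05 and Slc2a2 from -0.15 to 0.13. With the block as without it, Slc2a2 was at 0.01 for GW4064 without experiment 3 and at 0.06 for the hairpin without experiment 2. The cause of these changes was not tested. Hk1 has no value under the filter on dim genes. Levels near the floor limit Hk1 on all arrays and Pfkfb3 on 12 of 24.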

Other observations

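A second probe set that carries the symbol Slc2a1 lay near the floor on all arrays, between 3.30 and 3.89, with a hormone difference of 0.07. A probe set shared by Hk1os and Hk1 lay between 2.64 and 3.01, with a difference of -0.01. Neither entered the comparisons above.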
